A study of Mus musculus with 10 samples.

Results

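The regions described here are stretches of chromatin in mouse cortical neurons that carried H3K4me1 but not H3K27ac, away from the ends of genes. Each is a region of the untreated H3K4me1 peak list on chromosomes 1 to 19 that overlapped a KCl H3K4me1 region by at least 1 bp, overlapped no H3K27ac region of either condition, and lay more than 1 kb from the start or end of any RefSeq gene (GRCm38/mm10). There were 79926 such unacetylated regions, 42.2% of the 189576 untreated H3K4me1 regions on these chromosomes (the list over all chromosomes holds 192225). They made up 63.4% of the 126140 distal H3K4me1 regions shared by both conditions. The other distal shared regions fell into 3 classes, used below for comparison. H3K27ac was present in both lists at 25502 of them, in the KCl list alone at 8684 and in the untreated list alone at 12028. The list memberships that define these classes are a description, not a result.

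The data are chromatin immunoprecipitation sequencing (ChIP-seq) of primary cortical neurons from C57BL/6J mice, kept in culture to day 6 and held overnight in 3% serum. The 2 groups were neurons given KCl at 50 mM over 45 min, which depolarizes them, and untreated neurons, and antibodies against Gtf3c1, Rpc155, H3K4me1 and H3K27ac gave 1 peak list per antibody and group. No transgene or gene deletion is named in the labels. A dissociated cortical culture can hold glia and progenitors beside neurons. With 1 list per group, differences between KCl and untreated neurons are differences between lists, and no test across replicates could be made. Intervals are exact binomial (Clopper-Pearson) 95% intervals and cover counting error only. Since the lists carry no counts of reads, the depth behind them is unknown, and a region that is not listed may be weak rather than absent.

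H3K4me1, monomethylation of lysine 4 of histone H3, is laid down over enhancers by the methyltransferases Kmt2c and Kmt2d, and it can precede activity. H3K27ac, added by the acetyltransferases Crebbp and Ep300, marks enhancers and promoters that are in use, so a site with the first mark alone is commonly called primed. Gtf3c1 is the largest subunit of TFIIIC, which recognises the internal promoters of tRNA genes and recruits RNA polymerase III, and which also sits at many sites without that polymerase. Rpc155 is the largest subunit of RNA polymerase III. Raised potassium depolarizes the membrane, lets calcium in and switches on immediate-early genes.

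The distance rule used only the outer ends of genes, so an unacetylated region could still hold the start of an internal transcript. Such starts were rare: 278 unacetylated regions held an annotated RefSeq start (0.348%, 0.308 to 0.391), against 0.724% of all distal shared regions. The share was 1.89% (1.73 to 2.06) of regions acetylated in both lists, 1.45% (1.21 to 1.73) of those acetylated with KCl alone and 0.224% (0.148 to 0.326) of those acetylated in untreated neurons alone. The RefSeq promoter table (GRCm38.p6) gives sequence at these starts, and the 250 bases before the start are shown for 4 of them, with each CpG in capitals. They were chosen by rule among the unacetylated regions with a start, with strength taken from the untreated lists. Tacc2 had the strongest H3K4me1, and Kcnab1 the strongest Gtf3c1 among those with Gtf3c1 in both lists. Runx1 and Ppfibp2 had the most and the fewest CpG among the 30 strongest in H3K4me1.
Tacc2, chr7:130577188-130577437, plus strand: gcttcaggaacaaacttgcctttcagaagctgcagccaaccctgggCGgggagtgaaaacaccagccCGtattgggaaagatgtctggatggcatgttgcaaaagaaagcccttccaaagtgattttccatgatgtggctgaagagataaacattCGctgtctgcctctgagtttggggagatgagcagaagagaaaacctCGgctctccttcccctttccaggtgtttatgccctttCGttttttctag
Kcnab1, chr3:65187853-65188102, plus strand: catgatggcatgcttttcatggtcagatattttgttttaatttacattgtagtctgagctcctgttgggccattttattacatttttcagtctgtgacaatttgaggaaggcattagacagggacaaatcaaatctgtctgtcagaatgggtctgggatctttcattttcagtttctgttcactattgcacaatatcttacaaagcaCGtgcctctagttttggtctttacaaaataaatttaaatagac
Runx1, chr16:92697330-92697579, minus strand: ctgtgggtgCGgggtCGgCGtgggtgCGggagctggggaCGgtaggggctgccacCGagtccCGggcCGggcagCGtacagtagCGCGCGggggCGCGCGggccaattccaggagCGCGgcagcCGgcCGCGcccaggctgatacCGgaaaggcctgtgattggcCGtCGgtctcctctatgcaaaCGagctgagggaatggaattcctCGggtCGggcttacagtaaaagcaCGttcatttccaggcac
Ppfibp2, chr7:107665228-107665477, plus strand: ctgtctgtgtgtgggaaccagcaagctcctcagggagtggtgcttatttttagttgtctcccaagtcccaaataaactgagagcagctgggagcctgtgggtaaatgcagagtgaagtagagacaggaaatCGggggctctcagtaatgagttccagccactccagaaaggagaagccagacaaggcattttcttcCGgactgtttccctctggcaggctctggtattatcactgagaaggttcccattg

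Internal starts in unacetylated regions ranged widely in CpG content, and their median equalled that of Tacc2, a centrosomal protein gene with 5 CpG in the window. Runx1, a blood-lineage transcription factor gene, had 27. Kcnab1, which encodes a potassium channel beta subunit, had 1 CpG, and Ppfibp2, which encodes a liprin, had 2. Over the 302 windows of unacetylated regions the median was 5 CpG (quartiles 3 and 9) and the median GC content 52.2%. The 550 windows in regions acetylated in both lists had a median of 8 CpG (quartiles 4 and 15) and 55.2% GC, and all 31396 RefSeq windows had 6 CpG (quartiles 2 and 16) and 52.4% GC. Windows of 1 gene can overlap, so they are not independent, and whether these annotated starts were used was not measured. Some of the starts, that of Tacc2 among them, follow sequence that resembles a splice acceptor and may be the first exons of partial gene models. Such a window, with its CpG and motif values, could be intron rather than promoter sequence, and how many are of this kind was not tested.

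Matches to 6 short motifs were searched in the same 250 bases on both strands, and matches of different motifs may overlap. The E-box CAGNTG, the site of bHLH factors, occurred in 43.0% of windows of unacetylated regions (37.4 to 48.8), in 34.5% of those acetylated in both lists (30.6 to 38.7) and in 31.3% of all windows. The AP-1 site TGANTCA occurred in 7.95%, 7.45% and 6.77% of the same 3 sets. The full CRE TGACGTCA occurred in 0.993%, 0.909% and 1.58%, and a MEF2 core in 1.99%, 2.91% and 3.24%. The B box of TFIIIC occurred in none of the 302 windows, and in 0.108% of all windows. A count of 0 allows a share of up to 0.993% by the limit of 3 counts, and the exact interval runs up to 1.21%. The palindromic NFI site was likewise in none of the 302, and in 0.0382% of all windows. Sequence at unacetylated regions without an annotated start was not analysed here.

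Gtf3c1 was listed at 22 of the 278 unacetylated regions with an internal start with KCl (7.91%) and at 30 in untreated neurons (10.8%). Over all unacetylated regions the shares were 7.23% with KCl and 12.7% in untreated neurons, and over all distal shared regions 16.5% with KCl and 23.8% in untreated neurons. In regions acetylated in both lists that held a start, Gtf3c1 was at 69.1% with KCl and 68.5% in untreated neurons. The shares were lower in the other classes, at 19.8% with KCl and 22.2% untreated for regions acetylated with KCl alone, and 14.8% with KCl and 40.7% untreated for the 27 regions acetylated in untreated neurons alone. Nfatc2, which encodes a calcium-regulated transcription factor and was picked after its values were seen, had an unacetylated region over an internal start (chromosome 2, 168587719 to 168590586). Its H3K4me1 fold enrichment was 12.1 with KCl and 11.7 in untreated neurons, and its Gtf3c1 fold enrichment was 3.37 with KCl and 4.30 in untreated neurons. The Tacc2 region had Gtf3c1 in the untreated list alone, with a fold enrichment of 5.01, and the Runx1 and Ppfibp2 regions had none in either list.

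Unacetylated regions were weaker and narrower in H3K4me1 than the acetylated classes, a description since these values chose them. The fold enrichment, which is the authors' ratio of signal at the summit to local background, had a median of 4.24 with KCl and 3.91 in untreated neurons. It was 8.13 with KCl and 7.46 in untreated neurons at regions acetylated in both lists. The 10th and 90th percentiles of unacetylated regions were 2.83 and 7.07 with KCl and 2.81 and 6.22 in untreated neurons, so the ranges overlapped those of the regions acetylated in both lists. The median width was 535 bp for unacetylated regions, 943 bp for those acetylated with KCl alone, 912 bp for those acetylated in untreated neurons alone and 1655 bp for those acetylated in both. Together the unacetylated regions covered 53.8 Mb, close to the 50.2 Mb of the regions acetylated in both lists.

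**Figure D1:**
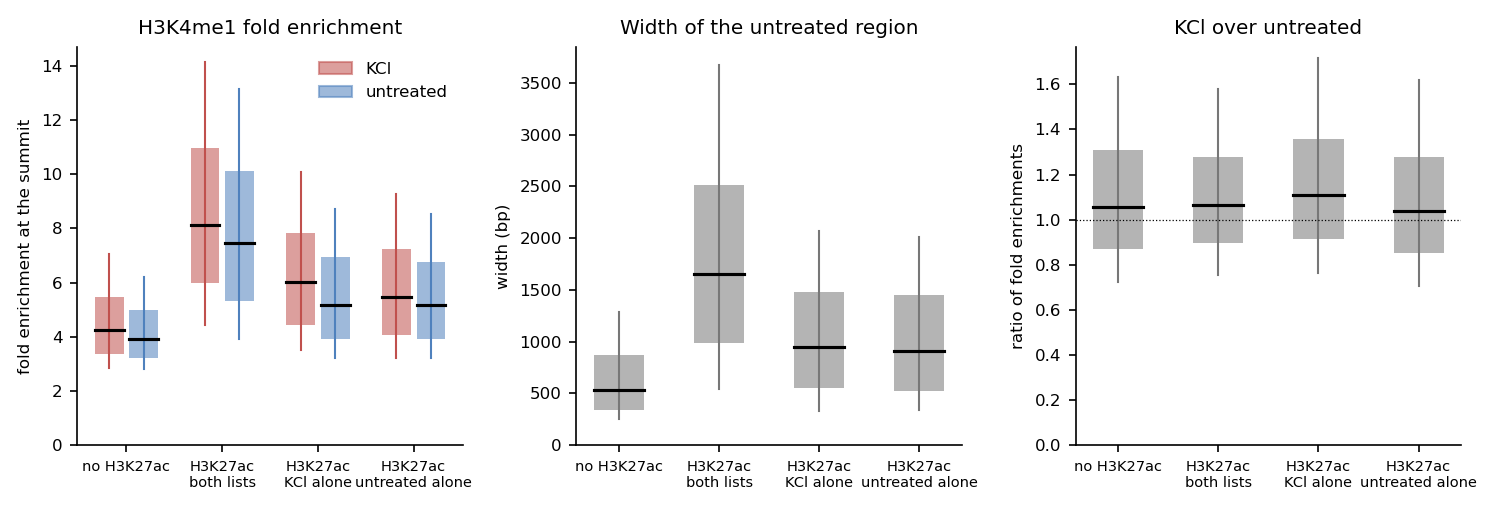
H3K4me1 in the 4 classes of distal shared regions: fold enrichment at the summit with KCl (red) and in untreated neurons (blue), width of the untreated region in bp, and the ratio of fold enrichments, KCl over untreated. Bars span the quartiles, black lines are medians and thin lines run between the 10th and 90th percentiles; regions without H3K27ac had the lowest medians for fold enrichment (4.24 with KCl and 3.91 untreated) and width (535 bp).

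H3K4me1 at unacetylated regions was similar in the 2 conditions, a description since the rule kept only regions listed in both. Where an unacetylated region met 2 or more KCl regions, as 3520 did, the highest KCl value was used, which can raise the ratio. The median ratio of fold enrichments, KCl over untreated, was 1.06 (quartiles 0.869 and 1.31), against 1.07 for regions acetylated in both lists, 1.11 for those acetylated with KCl alone and 1.04 for those acetylated in untreated neurons alone. A ratio of at least 1.5 was reached by 11420 unacetylated regions (14.3%, against 14% of all distal shared regions), and 4952 were lower with KCl by that factor (6.20%, against 5.9%). These counts lie near the background, and nothing is read from them, since the rule used both H3K4me1 lists. The ratio depended on the level in untreated neurons by which the regions were listed: its median was 1.37 for unacetylated regions with an untreated fold enrichment under 3 and 0.896 for those of 8 or more. The KCl H3K4me1 regions paired with the unacetylated regions reached beyond them at places, and for 4748 (5.94%, 5.78 to 6.11) the KCl region itself overlapped H3K27ac.

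Regions just inside and just outside the limits of the rule had similar H3K4me1. The 537 unacetylated regions lying at most 100 bp beyond the 1 kb limit around gene ends had a median H3K4me1 fold enrichment of 3.96 in untreated neurons, and the 545 shared regions without H3K27ac at most 100 bp within it, which were left out, had 4.09. Gtf3c1 was listed with KCl at 8.19% of the 537 and 6.24% of the 545. In untreated neurons it was listed at 11.5% of the 537 and 12.8% of the 545. Of the 881 unacetylated regions within 100 bp of an H3K27ac region, 9.53% had Gtf3c1 with KCl and 13.1% in untreated neurons. Of the 1185 regions left out because they overlapped H3K27ac by 1 to 100 bp, 11.1% had Gtf3c1 with KCl and 13.4% in untreated neurons.

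The labelled cell type was checked by H3K27ac at gene ends, which was listed at 58.1% of all protein-coding genes with KCl and 53.6% in untreated neurons. Within 1 kb of a gene end, H3K27ac was listed at 14 of 14 glutamatergic genes with KCl and in untreated neurons, and at 12 of 13 GABAergic genes with KCl and 11 in untreated neurons. It was listed at 5 of 10 astrocyte genes with KCl and 6 in untreated neurons, and at 9 of 10 neural progenitor genes with KCl and 6 in untreated neurons. The oligodendrocyte lineage had 2 of 9 with KCl and 1 untreated, microglia 0 of 10 with KCl and 1 untreated, endothelium 1 of 10 in each and non-neural tissue 3 of 15 in each. How much of the H3K4me1 came from cells other than neurons was not tested.

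Gtf3c1 was the first readout that the rule did not use, and it was sparse at unacetylated regions. It was listed at 5781 of them with KCl (7.23%, 7.05 to 7.41) and at 10190 in untreated neurons (12.7%, 12.5 to 13.0), against 16.5% with KCl and 23.8% untreated over all distal shared regions. Regions acetylated in both lists had Gtf3c1 at 44.2% with KCl and 55.6% in untreated neurons. Regions acetylated with KCl alone had 21.9% with KCl and 23.9% untreated, and those acetylated in untreated neurons alone had 15.6% with KCl and 30.2% untreated. The unacetylated share was the lowest of the 4 classes in both conditions, and its intervals did not overlap those of the others.

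The KCl share was 0.567 times the untreated share at unacetylated regions. This ratio was 0.796 at regions acetylated in both lists, 0.914 at those acetylated with KCl alone and 0.517 at those acetylated in untreated neurons alone. The KCl share of unacetylated regions was the lower on 19 of 19 chromosomes, where it lay between 6.31% and 8.21% with KCl and between 10.0% and 14.4% in untreated neurons. With the Gtf3c1 lists at equal length, the shares were 7.23% with KCl and 11.4% in untreated neurons.

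**Figure D2:**
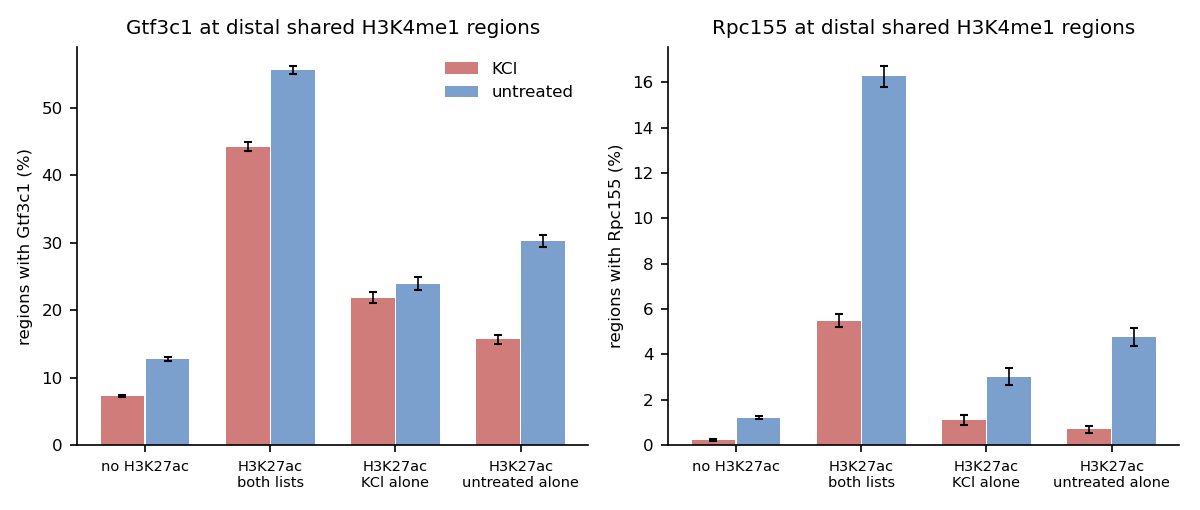
Share of distal shared H3K4me1 regions, in percent, that overlapped a Gtf3c1 region (left) or an Rpc155 region (right), by H3K27ac class, with KCl in red and untreated in blue and exact binomial 95% intervals as bars. Regions without H3K27ac had the lowest shares: 7.23% with KCl and 12.7% untreated for Gtf3c1, and 0.216% with KCl and 1.20% untreated for Rpc155.

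Few unacetylated regions had Gtf3c1 in both conditions. It was listed in both at 3046 (3.81%, against 11.4% of all distal shared regions), in the KCl list alone at 2735 (3.42%, against 5.12%) and in the untreated list alone at 7144 (8.94%, against 12.4%). Neither list held it at 67001 (83.8%). Where both did, the median Gtf3c1 fold enrichment was 4.13 with KCl and 5.09 in untreated neurons, and the median ratio, KCl over untreated, was 0.851. That ratio was 0.932 at regions acetylated in both lists. It was at least 1.5 at 131 of the 3046 regions (4.30%, against 7.25% of all distal shared regions with Gtf3c1 in both lists), and lower with KCl by that factor at 830 (27.2%, against 20.4%).

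Width and strength of H3K4me1 went with Gtf3c1 within the unacetylated class. Among regions under 300 bp wide, 3.53% had Gtf3c1 with KCl and 5.10% in untreated neurons, and among those over 2000 bp wide 27.3% had it with KCl and 44.0% in untreated neurons. The median widths of these bins were 245 and 2327.5 bp. With overlap counted from 1 bp, a wider region can meet more Gtf3c1 regions by its length alone, and this was not separated. At matched widths the classes still differed: from 500 to 1000 bp, 7.14% of unacetylated regions had Gtf3c1 with KCl and 12.7% in untreated neurons, against 27.4% with KCl and 33.0% untreated of regions acetylated in both lists. At an untreated H3K4me1 fold enrichment of 3 to 5, the shares were 5.65% with KCl and 9.38% untreated for unacetylated regions, and 26.1% with KCl and 28.3% untreated for regions acetylated in both lists.

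Gtf3c1 varied with distance to acetylated chromatin within the unacetylated class. Their median distance to the nearest H3K27ac region of either list was 9224 bp, and 30131 (37.7%) lay within 5 kb of one. At the 6350 regions within 500 bp, Gtf3c1 was listed at 10.1% with KCl and 12.8% in untreated neurons. At the 5021 regions 500 to 1000 bp away, it was listed at 9.58% with KCl and 9.56% in untreated neurons. At the 23627 regions 5 to 20 kb away, it was listed at 6.18% with KCl and 11.9% in untreated neurons, and at the 20434 regions 20 to 100 kb away at 5.83% with KCl and 14.1% in untreated neurons. Beyond 100 kb, at 5735 regions, the shares were 9.50% with KCl (8.76 to 10.3) and 21.3% in untreated neurons (20.2 to 22.3). In percentage points, the shares were nearly equal at 500 to 1000 bp and furthest apart beyond 100 kb.

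**Figure D3:**
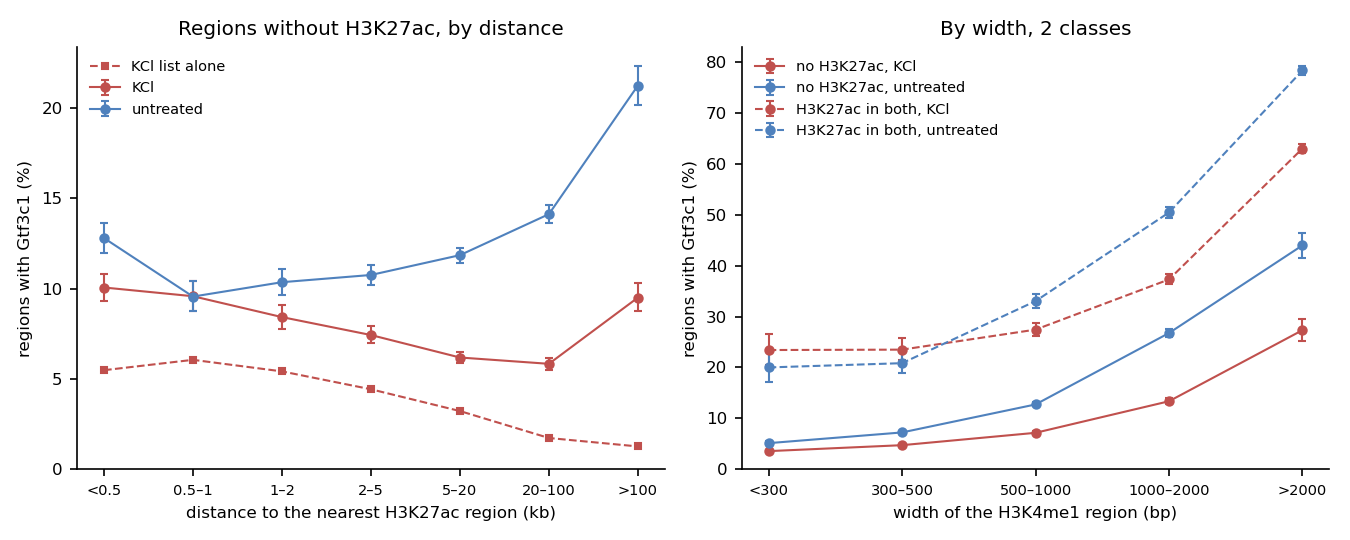
Share of regions with Gtf3c1, in percent. Left: regions without H3K27ac by distance to the nearest H3K27ac region in kb, with KCl (red), untreated (blue) and KCl list alone (dashed); beyond 100 kb the share was 9.50% with KCl, 1.26% in the KCl list alone and 21.3% untreated. Right: by width of the H3K4me1 region in bp, for regions without H3K27ac (solid) and with H3K27ac in both lists (dashed). Bars are exact binomial 95% intervals.

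The higher untreated share beyond 100 kb was also found in subsets of the unacetylated regions. Among those 300 to 1000 bp wide, the share within 5 kb of H3K27ac was 7.70% with KCl and 9.20% in untreated neurons, and beyond 100 kb it was 7.90% with KCl and 19.1% in untreated neurons. Inside genes it was 10.0% with KCl and 11.3% untreated within 5 kb, and 8.83% with KCl and 20.7% untreated beyond 100 kb. Outside genes it was 4.58% with KCl and 9.86% untreated within 5 kb, and 9.94% with KCl and 21.6% untreated beyond 100 kb. Regions far from H3K27ac were also less often genic: 39.1% of those beyond 100 kb had their summit in a gene, against 70.3% of those within 500 bp. Rpc155 was listed at 3.44% of the regions beyond 100 kb in untreated neurons.

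Gtf3c1 in the KCl list alone had the opposite gradient. It was found at 5.48% of unacetylated regions within 500 bp of H3K27ac, at 3.22% of those 5 to 20 kb away, at 1.72% of those 20 to 100 kb away and at 1.26% of those beyond 100 kb. The 2735 regions lay a median 3609 bp from H3K27ac, against 12411.5 bp for the 7144 regions with Gtf3c1 in the untreated list alone. Their summits were inside a gene in 85.2% of cases (83.8 to 86.5), 82.6% in a protein-coding gene. The share inside a gene was 62.7% (61.5 to 63.8) for Gtf3c1 in the untreated list alone, 62.3% (60.6 to 64.1) for both lists and 64.0% (63.7 to 64.4) for neither, against 65.2% of all distal shared regions. Where Gtf3c1 was in the KCl list alone, 78.5% (76.7 to 80.2) of regions acetylated in both lists, 85.7% of those acetylated with KCl alone and 85.2% of those acetylated in untreated neurons alone were genic. Where it was in both lists, the shares of these classes were 73.8%, 83.2% and 61.5% in the same order. Differences between the classes were not tested.

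The genes holding most of these KCl-only Gtf3c1 sites at unacetylated regions are named here by that count, after their values were seen. Tenm2, which encodes a teneurin, held 31 among its 184 unacetylated regions, at 33 separate Gtf3c1 regions with fold enrichments of 2.40 to 5.38. Grin2b, the gene of an NMDA receptor subunit, held 23 of 63, at 25 Gtf3c1 regions. Cadm1 and Ncam1, which encode immunoglobulin-like adhesion molecules, held 21 each, and Ank2 (ankyrin-B), Kalrn (the guanine nucleotide exchange factor kalirin) and Plxna4 (a semaphorin receptor) held 20 each. Dab1, the gene of the reelin adaptor, held 19, and Rbfox1, a splicing factor gene, 13. Sites with Gtf3c1 in the untreated list alone numbered 10 in Tenm2, 5 in Grin2b, 6 in Cadm1, 8 in Ncam1, 10 in Ank2, 7 in Kalrn, 4 in Plxna4, 9 in Dab1 and 17 in Rbfox1. The ranking by KCl-only sites favours genes where these are the more numerous, so no direction is read from these counts. Most of the Gtf3c1 regions were narrow: the median width behind the 2735 regions was 285 bp, and 17 (0.622%) lay under a Gtf3c1 region of 2 kb or more.

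A few of the strongest KCl-only sites were broad Gtf3c1 regions instead. The unacetylated region in Noct, which encodes the deadenylase-like protein nocturnin, led the list (chromosome 3, 51226057 to 51227700) with a Gtf3c1 fold enrichment of 21.3 (Gtf3c1 region at 51224105 to 51226647). Such a value belongs to the whole Gtf3c1 region, whose summit may lie outside the H3K4me1 region. The H3K4me1 fold enrichment was 8.13 with KCl and 5.37 in untreated neurons, and the region lay 76 bp from H3K27ac. In Fosb, an AP-1 subunit gene of the immediate-early response, the region at chromosome 7, 19303775 to 19305905 had Gtf3c1 at 12.9 inside a Gtf3c1 region of 10348 bp. Its H3K4me1 fold enrichment was 12.9 with KCl and 5.86 in untreated neurons, and Rpc155 was listed with KCl alone, at 3.45. In Homer1, which encodes a postsynaptic scaffold protein with an activity-induced short form, the region at chromosome 13, 93309160 to 93310580 also had Gtf3c1 at 12.9, inside a Gtf3c1 region of 7362 bp. Dnah7b, an axonemal dynein gene, differed from these: its region overlapped a Gtf3c1 region with a fold enrichment of 15.8 but lay 148167 bp from H3K27ac. That H3K4me1 region (chromosome 1, 46269989 to 46270424) met only the edge of the Gtf3c1 region (46269061 to 46269992). The value of 15.8 therefore describes a site almost wholly outside the unacetylated region.

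Rpc155 was rare at unacetylated regions. It was listed at 173 with KCl (0.216%, 0.185 to 0.251) and at 960 in untreated neurons (1.20%, 1.13 to 1.28), against 1.39% with KCl and 4.71% untreated over all distal shared regions. Regions acetylated in both lists had Rpc155 at 5.49% with KCl and 16.3% in untreated neurons. It was in both lists at 78 unacetylated regions (0.0976%, against 0.775% of all distal shared regions), in the KCl list alone at 95 (0.119%, against 0.613%) and in the untreated list alone at 882 (1.10%, against 3.93%). At the 78, the ratio of Rpc155 fold enrichments, KCl over untreated, was at least 1.5 at 8 (10.3%, against 9.61% of all distal shared regions with Rpc155 in both lists) and lower by that factor at 14 (17.9%, against 5.62%). The 2 Rpc155 lists differed in length, 4251 regions with KCl and 12531 untreated. With equal lengths the unacetylated shares were 0.216% with KCl and 0.505% in untreated neurons, and those of regions acetylated in both lists 5.49% with KCl and 5.76% untreated.

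Most polymerase at unacetylated regions lay with Gtf3c1. Of the regions with Rpc155, 69.9% also had Gtf3c1 with KCl and 73.9% in untreated neurons, against 89.0% with KCl and 87.2% untreated of those acetylated in both lists. The converse was uncommon, since 2.09% of the unacetylated regions with Gtf3c1 had Rpc155 with KCl and 6.96% in untreated neurons. Unacetylated regions with Rpc155 were less often inside genes than those without: 41.0% (30.0 to 52.7) with Rpc155 in both lists, 44.2% (34.0 to 54.8) with KCl alone and 48.2% (44.8 to 51.5) in untreated neurons alone, against 64.8% (64.5 to 65.1) without it.

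The strongest polymerase sites among the unacetylated regions lay mostly outside named genes. Of the 10 highest in untreated neurons among those with Rpc155 in both lists, 9 lay outside genes once predicted models were left out. The 9 include a pair near Usp25 that shares 1 Rpc155 region. The highest (chromosome 9, 66999153 to 66999432, nearest to the tropomyosin gene Tpm1 at 23387 bp) had an Rpc155 fold enrichment of 33.9 with KCl and 27.8 in untreated neurons, with no Gtf3c1 in either list. This unacetylated region lay 476 bp from H3K27ac. Most of the Rpc155 region (66999256 to 67000090 with KCl, 66999211 to 67000163 in untreated neurons) lay outside it. The values of 33.9 and 27.8 may therefore describe a site beyond the unacetylated region. The region 52983 bp from Fam241a (chromosome 3, 127948924 to 127949595) had Rpc155 at 23.6 with KCl and 12.1 in untreated neurons, and Gtf3c1 at 43.6 with KCl and 22.0 in untreated neurons. A region inside Clic5, a chloride channel-related gene, was lower with KCl, with Rpc155 at 7.26 with KCl and 10.9 in untreated neurons.

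In untreated neurons, Gtf3c1 summits tended to lie beside the H3K4me1 summit, which was not seen with KCl. The Gtf3c1 summit lay inside the unacetylated region in 75.5% of cases with KCl and 79.7% in untreated neurons. The median distance between the summits was 247 bp with KCl and 240 bp in untreated neurons, against 431 bp with KCl and 380 bp untreated at regions acetylated in both lists. The latter were wider (median 1655 bp, against 535 bp), which leaves room for larger distances, and the distances were not compared at matched width. In untreated neurons the distances formed 2 humps: 616 regions had the Gtf3c1 summit in the 50 bp bin at -200 bp and 653 in that at 200 bp, against 459 in the bin at 0. With KCl the counts in these bins were close to each other, at 320, 298 and 315 for -200 bp, 200 bp and 0.

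**Figure D4:**
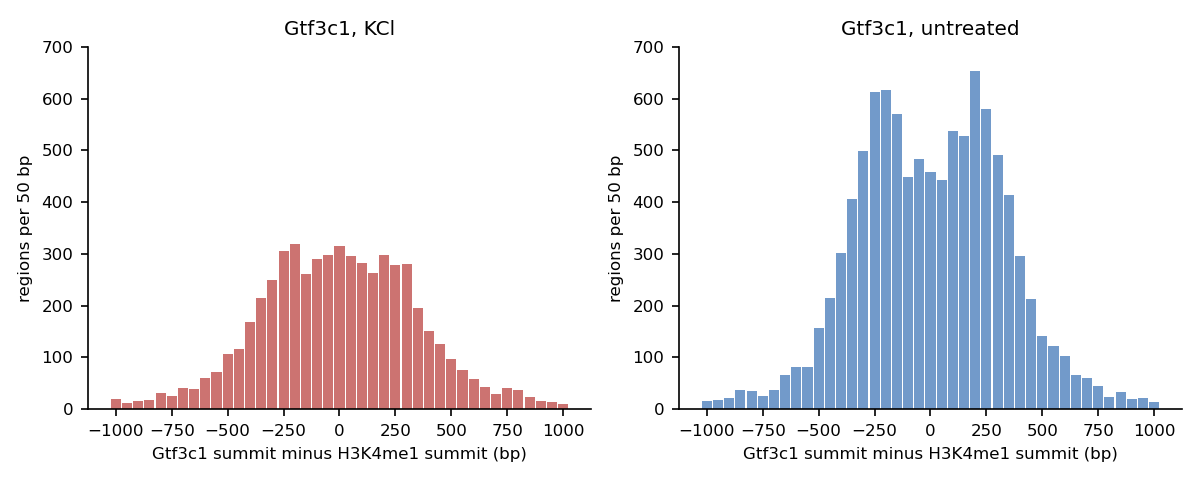
Number of unacetylated regions per 50 bp bin of the distance between the Gtf3c1 summit and the H3K4me1 summit in bp, with KCl (left, red) and in untreated neurons (right, blue). In untreated neurons the counts were highest near 200 bp on either side (616 and 653) and lower at 0 (459).

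Some Gtf3c1 sites lay in a gap between 2 unacetylated regions. In untreated neurons 226 Gtf3c1 regions spanned 2 or more neighbouring unacetylated regions, and in 177 (78.3%, 72.4 to 83.5) the Gtf3c1 summit was in the gap, whose median length was 241.5 bp. With KCl there were 122, of which 93 (76.2%, 67.7 to 83.5) had the summit in the gap. At regions acetylated in both lists the share was 60.9% (55.5 to 66.2) with KCl and 61.5% (56.2 to 66.6) in untreated neurons. A spanning Gtf3c1 region covers the gap by construction, which favours a summit there, so these shares are a description. The spanning Gtf3c1 regions also differed in median width. It was 498.5 bp with KCl and 513 bp untreated at unacetylated regions, and 872 bp with KCl and 835 bp untreated at regions acetylated in both lists. Members of such a pair share 1 Gtf3c1 region and are not independent.

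Such pairs led the list of Gtf3c1 strength in untreated neurons. The strongest pair (chromosome 4, 64598267 to 64598485 and 64598811 to 64599020) lay 525859 and 525248 bp from the nearest named gene end, that of Pappa, which encodes a metalloprotease that cleaves insulin-like growth factor-binding proteins. The shared Gtf3c1 region had a fold enrichment of 30.9 with KCl and 39.4 in untreated neurons, and Rpc155 was at 5.51 with KCl and 9.68 in untreated neurons. A pair inside Cdkn3, a cell-cycle phosphatase gene (chromosome 14, 46766686 to 46767089 and 46767320 to 46767739), had Gtf3c1 at 39.1 with KCl and 38.7 in untreated neurons. Rpc155 was listed there in untreated neurons alone, at 7.30. A pair near Usp25, a deubiquitinase gene, came from the ranking by Rpc155 instead (chromosome 16, 76865787 to 76866142 and 76866363 to 76866702). It had Gtf3c1 at 38.6 with KCl and 25.1 in untreated neurons and Rpc155 at 21.4 with KCl and 14.6 in untreated neurons.

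Others of the 10 strongest had lower Gtf3c1 fold enrichments with KCl, a direction that ranking by the untreated list favours. The region nearest to Fgf20, a fibroblast growth factor gene (chromosome 8, 40226863 to 40228100), had Gtf3c1 at 17.0 with KCl and 33.7 in untreated neurons, while its H3K4me1 fold enrichment was 9.01 with KCl and 9.24 in untreated neurons. The region in Rcan3, a calcineurin regulator gene (chromosome 4, 135424897 to 135427108), had 24.2 with KCl and 32.4 in untreated neurons. A pair near Sall1, a zinc finger gene, had 20.6 with KCl and 32.6 in untreated neurons.

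Ranked by H3K4me1 in untreated neurons, the leading unacetylated regions had H3K4me1 as strong as acetylated ones. The first lay in Akap9, a scaffold gene of the Golgi and centrosome (chromosome 5, 3941660 to 3942509), at 13.7 with KCl and 19.5 in untreated neurons, with Rpc155 at 7.47 in untreated neurons alone. It was 524 bp from H3K27ac. The second, in Ctnnbl1, a gene of the splicing machinery (chromosome 2, 157874459 to 157879647), was 10979 bp from H3K27ac. Its H3K4me1 fold enrichment was 18.2 with KCl and 18.1 in untreated neurons, and Gtf3c1 was at 7.53 with KCl and 9.67 in untreated neurons. The region in Mad1l1, a spindle checkpoint gene (chromosome 5, 140082005 to 140083474), had H3K4me1 at 12.3 with KCl and 18.1 in untreated neurons, and Gtf3c1 in the untreated list alone, at 17.5.

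The fourth region lay in Crebbp itself (chromosome 16, 4084058 to 4086206), 4658 bp from H3K27ac, with H3K4me1 at 15.7 with KCl and 16.2 in untreated neurons. The seventh, 173228 bp from Klf12, a zinc finger repressor gene (chromosome 14, 100458159 to 100460371), had H3K4me1 at 13.6 with KCl and 16.9 in untreated neurons and Gtf3c1 at 16.5 with KCl and 29.0 in untreated neurons. In Dpp6, the gene of a potassium channel auxiliary subunit, the region at chromosome 5, 26944684 to 26946604 had H3K4me1 at 13.2 with KCl and 16.5 in untreated neurons and Gtf3c1 at 13.1 with KCl and 21.3 in untreated neurons. Of these 10 regions, 7 had a lower H3K4me1 fold enrichment with KCl; they were ranked by the untreated list.

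Unacetylated regions lay mainly within genes, as did distal H3K4me1 in general. The summit was inside a gene for 64.6% (64.2 to 64.9), against 65.2% of all distal shared regions, and inside a protein-coding gene for 57.7%. Of the 20661 protein-coding genes on chromosomes 1 to 19, 8592 (41.6%) held at least 1, with a median of 2 and a maximum of 198, and 1210 held 10 or more. Counting distal shared regions of all classes, 1937 genes held 10 or more. Counted by region, 81.7% of the 46143 unacetylated regions in protein-coding genes had a host with H3K27ac within 1 kb of a gene end with KCl and 76.7% in untreated neurons. The same share was higher for the acetylated classes, between 83.5% and 84.8% with KCl and between 80.2% and 81.2% in untreated neurons.

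The genes with most unacetylated regions were long, each spanning 969 kb or more, against a median of 17.5 kb for all protein-coding genes. Auts2, a neurodevelopmental gene whose product associates with Polycomb proteins, held 198 among 237 distal shared regions, or 17.9 per 100 kb. Tenm2 held 184 of 272 and Rbfox1, a neuronal splicing factor gene, 181 of 230. Dab1 held 127 of 238, and Cdh13, which encodes T-cadherin, 115 of 160 without H3K27ac at its gene ends in either list. Ptprd, a receptor phosphatase gene of synapse formation, held 106 of 154. Ntm, an adhesion protein gene, held 100 of 161, and Macrod2, an ADP-ribosylhydrolase gene, 87 of 142. Dlg2, the gene of the postsynaptic scaffold PSD-93, stood lowest in share among these genes, with 97 of 238.

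In a smaller group of genes all distal shared H3K4me1 regions were unacetylated. Of the 1210 protein-coding genes that held 10 or more unacetylated regions, 51 held no acetylated distal shared region. Those named here were named after their values were seen. Npas3, a bHLH-PAS transcription factor gene, led with 42, of which 9 had Gtf3c1 in the untreated list alone, 4 in both and 1 in the KCl list alone. Hmcn1, an extracellular matrix gene, had 25, Camkmt, a calmodulin methyltransferase gene, 24, and Disp1, a gene of Hedgehog release, 23. Abl1, the tyrosine kinase gene, had 18, of which 5 had Gtf3c1 in the KCl list alone and none in the untreated list. Npas3, Camkmt, Disp1 and Abl1 carried H3K27ac at a gene end in both lists, and Hmcn1 did not in either.

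Around listed genes, the share of distal shared H3K4me1 without H3K27ac ran from 46.0% to 79.5%, against 63.2% over the 96837 such regions within 50 kb of any protein-coding gene; this share is what the rule selects and is a description. It was lowest around immediate-early genes, at 125 of 272 regions (46.0%, 39.9 to 52.1). Another 54 of the 272 (19.9%) were acetylated with KCl alone, against 7.50% near all protein-coding genes. High KCl-alone shares were also found at neural progenitor (12 of 63 regions), astrocyte (13 of 77), microglia (9 of 56) and housekeeping genes (11 of 73). In the other lists, delayed activity-regulated genes among them, this share lay between 5.13% and 10%. A high share was therefore not particular to activity-regulated genes. Delayed activity-regulated genes had 71 of 130 regions without H3K27ac (54.6%, 45.7 to 63.4). Glutamatergic neuron genes had 202 of 346 (58.4%, 53.0 to 63.6), and GABAergic neuron genes 85 of 110 (77.3%, 68.3 to 84.7). The GABAergic count leans on long genes, with 33 of 35 regions near Sox6 and 14 of 16 near Adarb2. The median share per gene was 66.7% for the GABAergic list, as it was for all protein-coding genes. Genes of long synaptic and adhesion proteins had 1143 of 2007 (57.0%, 54.8 to 59.1), axon guidance genes 640 of 941 (68.0%, 64.9 to 71.0) and housekeeping genes 40 of 73 (54.8%, 42.7 to 66.5).

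Most lists of other cell types had unacetylated shares whose intervals included the 63.2% near all protein-coding genes. Microglia genes had 41 of 56 (73.2%, 59.7 to 84.2), endothelium genes 70 of 97 (72.2%, 62.1 to 80.8), and neural progenitor genes 44 of 63 (69.8%, 57.0 to 80.8). Oligodendrocyte lineage genes had 54 of 85 (63.5%, 52.4 to 73.7) and astrocyte genes 41 of 77 (53.2%, 41.5 to 64.7). Non-neural genes had 31 of 39 (79.5%), with an interval of 63.5 to 90.7 that began just above that value. The neighbourhoods of genes close together, such as C1qa and C1qb, share regions.

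**Figure D5:**
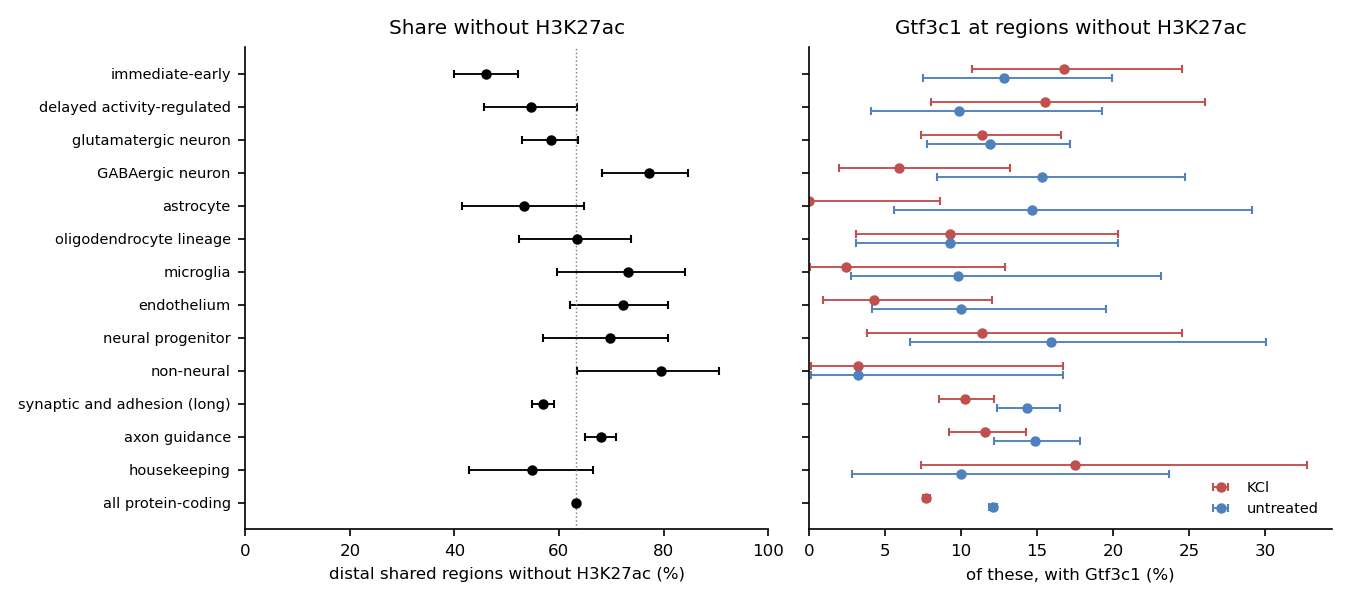
Left: share of distal shared H3K4me1 regions within 50 kb of listed genes that had no H3K27ac, in percent, with exact binomial 95% intervals and the value over all protein-coding genes as a dotted line (63.2%). Right: share of those unacetylated regions with Gtf3c1, in percent, with KCl (red) and untreated (blue). Immediate-early genes were lowest on the left (46.0%) and had 16.8% with KCl and 12.8% untreated on the right.

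Within the immediate-early list the genes differed widely. Maff, which encodes a small Maf factor, had 10 unacetylated regions of 13 distal shared, Nr4a3, an orphan nuclear receptor gene, 9 of 21, Btg2, an antiproliferative gene, 8 of 12 and Gadd45g, a stress-response gene, 8 of 13. Fos had 1 of 7, Nr4a1 1 of 14, Arc 1 of 6, Klf6 0 of 4 and Egr1 0 of 4. Fosb had 5 of 13. Of the neuronal identity genes, Cux1, an upper-layer homeobox gene, had 53 of 60, Foxp2, a deep-layer forkhead gene, 17 of 20, and Neurod6, a bHLH gene, 1 of 8. Sox6, a transcription factor gene of interneurons, had 33 of 35 and Adarb2, another interneuron marker, 14 of 16. Other GABAergic genes had lower shares: Gad1 had 4 of 8, Gad2 0 of 2 and Slc32a1 6 of 9. Lhx6 had 4 of 6, Dlx1 1 of 6 and Dlx2 1 of 5.

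Around immediate-early, delayed and housekeeping genes, Gtf3c1 was listed at more unacetylated regions with KCl than in untreated neurons, with intervals that overlap between the conditions. For immediate-early genes it was listed at 21 of 125 with KCl (16.8%, 10.7 to 24.5) and at 16 in untreated neurons (12.8%, 7.50 to 20.0). Near all protein-coding genes the shares were 7.71% with KCl and 12.1% in untreated neurons. The KCl list alone held it at 15 of the 125 (12%, against 4.15% near all protein-coding genes), of which 3 were near Fosb and 2 each near Nr4a3, Npas4 and Sik1. The pair near Nr4a3 lay under Gtf3c1 regions of 5006 and 7349 bp.

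For delayed genes Gtf3c1 was listed at 11 of 71 with KCl (15.5%, 8.00 to 26.0) and at 7 in untreated neurons (9.86%, 4.06 to 19.3). All 8 sites in the KCl list alone were near Homer1, at 6 Gtf3c1 regions, so the KCl-only part of this list's share rests on 1 gene. The 3 sites in both lists were near other genes. Housekeeping genes had 7 of 40 with KCl (17.5%, 7.34 to 32.8) and 4 untreated (10.0%, 2.79 to 23.7), with 5 in the KCl list alone (12.5%). Glutamatergic genes had 23 of 202 with KCl (11.4%, 7.36 to 16.6) and 24 untreated (11.9%, 7.76 to 17.2). Regions near 1 gene are not independent, so these intervals cover counting error only. GABAergic genes had 5 of 85 with KCl (5.88%, 1.94 to 13.2) and 13 untreated (15.3%, 8.40 to 24.7), with none in the KCl list alone. These sites lay near few, long genes. Sox6 had 3 in the untreated list alone and 2 in both, Erbb4 had 4 and 1, and Adarb2 had 1 and 2. No difference between lists was tested.

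Long synaptic and adhesion genes had Gtf3c1 at 117 of 1143 unacetylated regions with KCl (10.2%, 8.54 to 12.1) and 164 in untreated neurons (14.3%, 12.4 to 16.5). Axon guidance genes had 74 of 640 with KCl (11.6%, 9.19 to 14.3) and 95 untreated (14.8%, 12.2 to 17.8). Plxna4 held 20 of the 38 KCl-only sites of the axon guidance list, and Ptprd held 11 of the 63 of the synaptic list. Astrocyte genes had 0 of 41 with KCl and 6 untreated, and microglia genes 1 of 41 with KCl and 4 untreated.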

How the data were processed

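The submitters' processing notes name Bowtie2, MACS2 and GRCm38/mm10, without versions. The series design text states 3 biological replicates and a total chromatin input control; it does not say if peaks were called on pooled replicates, and the inputs were not analysed here. Each deposited list gives position, summit and 4 values per region: the deposited fold enrichment is a ratio of summit signal to local background, the deposited −log10 values (of p and of q) come from the peak caller, and the deposited score is 10 times the −log10 q. The lists reach a q of about 0.05, taken from the values as the authors' threshold. Fold enrichments were set side by side between lists without adjustment.

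Overlap meant at least 1 bp. Where several regions overlapped, the highest fold enrichment was used. Genes (47038 on chromosomes 1 to 19) and 31396 promoter windows came from RefSeq tables of GRCm38.p6. Of 201 listed symbols 196 were found; neighbourhoods were the gene plus 50 kb. Computation used Python 3.11.15, numpy 2.4.6, pandas 2.3.3 and scipy 1.17.1, and the interval code was checked on simulated regions. Columns of per-sample values left unused numbered 0.

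The regions and gene lists were chosen with earlier results of these data known. Genes named by rule were the listed genes, the 10 protein-coding genes with most unacetylated summits, the 10 strongest in untreated H3K4me1 −log10 q, the 10 strongest in untreated Gtf3c1 with both lists, in KCl Gtf3c1 with the KCl list alone and in untreated Rpc155 with both lists; a region was named by the gene holding its summit, otherwise by the nearest gene end, and predicted models were left out. Results for some genes that this rule names are not reported here. Sequence by coordinates was not analysed here beyond the promoter table. Alternatives changed the q threshold, the overlap, the distances, the gene set, the list lengths, the summit, the width and the strength.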

Additional observations from a re-analysis of the deposited data

How the results depend on the processing

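Of 82 values under alternative settings, 38 stayed within the counting interval or within 1.5 times the count, and 44 moved beyond it. The share of unacetylated regions with Gtf3c1 or Rpc155 was lower with KCl than in untreated neurons in all 11 settings (the reported one included), and lower than at regions acetylated in both lists in all of them, for both factors and both conditions. With H3K4me1 regions of q 1e-05 or lower there were 46395 unacetylated regions, 1384 of them within 50 kb of listed genes (against 79926 and 2587). Gtf3c1 was then at 9.54% with KCl and 17.8% untreated, Rpc155 at 0.345% with KCl and 1.91% untreated, the H3K4me1 ratio was 1.04, 64.2% were genic and 36.5% lay within 5 kb of H3K27ac. With that q in every list, Gtf3c1 was at 5.70% with KCl and 12.4% untreated, Rpc155 at 0.167% with KCl and 0.787% untreated, the ratio was 1.04 and 25.9% lay within 5 kb of H3K27ac. With an overlap of 50% of the shorter region, Gtf3c1 was at 6.07% with KCl and 11.1% untreated, Rpc155 at 0.182% with KCl and 0.975% untreated, and 37.4% lay within 5 kb of H3K27ac. With no H3K27ac within 1 kb, Gtf3c1 was at 6.80% with KCl, the ratio was 1.05, 63.3% were genic and, by construction, fewer (27.4%) lay within 5 kb of H3K27ac. More than 5 kb from gene ends, Gtf3c1 was at 13.3% untreated, 63.7% were genic and 33.5% lay within 5 kb of H3K27ac. With equal list lengths, Gtf3c1 was at 11.4% and Rpc155 at 0.505% in untreated neurons. With the factor's summit inside the region, Gtf3c1 was at 5.50% with KCl and 10.2% untreated, and Rpc155 at 0.160% with KCl and 0.881% untreated. At 500 to 1000 bp, Rpc155 was at 0.180% with KCl and 1.10% untreated. At an H3K4me1 fold enrichment of 3 to 5, Gtf3c1 was at 5.65% with KCl and 9.38% untreated, and Rpc155 at 0.100% with KCl and 0.582% untreated. Except where the construction shows it, the cause was not tested. For 2 results added after seeing the data, KCl-only Gtf3c1 sites were genic in 78.5% to 86.2% and untreated Gtf3c1 beyond 100 kb from H3K27ac was at 16.7% to 29.5% across the alternatives.

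No paired analysis was possible because each antibody and condition had 1 list. Depth and the spread between replicates are unknown, and class differences in H3K4me1 width and strength, which go with Gtf3c1, remain after matching on 1 of them at a time; matching on both was not run.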

Other observations

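Unacetylated H3K4me1 was not particular to distal sites. Of the 28829 shared H3K4me1 regions within 1 kb of a gene end, 8753 (30.4%) also lacked H3K27ac in both lists. A further 29065 distal H3K4me1 regions of untreated neurons without H3K27ac had no counterpart in the KCl list, and were left out by the rule. By chromosome, the unacetylated share of distal shared regions lay between 58.1% and 66.3%, with a median of 63.7%.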
